A study of Rattus norvegicus with 30 samples.

Results

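The subunits of the 5 complexes of oxidative phosphorylation were followed in the hippocampus of adult Sprague Dawley rats of both sexes. They were taken as every probe of the array whose annotated symbol begins with *Ndufa*, *Ndufb*, *Ndufc*, *Ndufs* or *Ndufv* and a digit, is *Sdha* to *Sdhd*, or begins with *Uqcr*, *Cox4* to *Cox8* or *Atp5*. The rule used the symbol alone and no measured value, and it found 61 genes, with 1 probe each, among the 13337 genes named on the array. These were 29 genes of complex I, 4 of complex II, 4 of complex III, 11 of complex IV and 13 of complex V, and 59 of the 61 lay above the array's background on at least 5 arrays. The rats had either been exposed to the scent of a predator and then sorted by their behaviour into an extreme and a minimal response, or had been left unexposed and put through the same behavioural tests as controls. Each of the 6 groups of sex and response held 5 rats, but 1 array of a male minimal responder carried no values, so 29 rats were compared and the male minimal group had 4. RNA came from whole dissected hippocampus, 1 rat to an array, so a lower level can mean fewer cells of a type or less RNA per cell, and these cannot be told apart.

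Complex I, NADH dehydrogenase, takes electrons from NADH. Complex II, succinate dehydrogenase, takes them from succinate, complex III passes them to cytochrome c, and complex IV, cytochrome c oxidase, passes them to oxygen. The proton gradient built on the way drives complex V, ATP synthase, which supplies most of the ATP that neurons spend on ion pumping and synaptic transmission. All of the genes followed here are nuclear; the subunits that mitochondrial DNA encodes were outside the rule. *Ndufs6-ps1* carries the symbol of a pseudogene, *Ndufa10l1* that of a paralog of *Ndufa10*, and *Cox7a2l*, known as a factor that joins complexes III and IV, was taken in by its symbol.

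Values were deposited on a scale that ran from 6.31 to 15, taken here as log2 intensity, and an empty probe lay near 6.7. *Ndufs4*, a complex I accessory subunit, was above the background threshold of 7.03 in 0 of 29 rats, and *Cox8c*, the testis isoform of a complex IV subunit, in 1. Another 6 were near the threshold and passed it in some rats: *Cox8b* in 10, *Cox6a2* in 14, *Atp5mc3* in 15, *Ndufb4* in 18, *Ndufs6-ps1* in 20 and *Cox6c* in 28. The other 53 were above it in all 29 rats. Probes differ in how well they bind, so the level of one subunit was not set against that of another.

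Levels of 7 markers of hippocampal neurons were read. *Prox1* and *C1ql2* of granule cells, *Wfs1* and *Neurod6* of pyramidal cells, *Neurod1*, *Nrgn* and *Camk2a* all passed the filter, although *Prox1* stayed close to it at 7.02 to 7.42. No other tissue was compared, so passing the filter does not show the origin of the tissue. The X-linked gene *Eif2s3* ran from 7.82 to 8.14 in females and from 7.33 to 7.84 in males. The arrays divided into 2 sets that the labels do not name. The gene of a ribosomal protein, *Rpl37l1*, lay at 11.32 to 12.64 in 12 rats (set A) and at 8.89 to 10.13 in the other 17 (set B). None of the 10 extreme responders was in set A, which held 3 of the 5 rats in each control group, 3 of 5 female minimal responders and 3 of the 4 males that responded minimally. Calls that involve extreme responders are therefore also given from a fit with a term for the array set (a block), and single subunits from the rats of set B on their own.

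Promoter sequences of the nuclear subunit genes are shown because such promoters are known for sites of NRF1 and of GABP, an ETS factor, which are regulators of respiratory genes. RefSeq promoters of build GRCr8, from 250 bases before to 50 bases after the start of the gene, were found for 53 of the 61 genes. There was none for *Ndufa8*, *Ndufa10l1*, *Ndufb9*, *Ndufs6-ps1*, *Uqcrb*, *Cox6a1*, *Cox6c* and *Atp5pd*. The 250 bases before the start are printed for 6 genes, each 5′ to 3′ on the strand of its gene, with matches to 3 motifs in capitals on either strand. The NRF1 motif was searched as GCGCNTGCGC. The ETS core was searched as CCGGAAG. The letters TATAAA of a TATA box were added after the sequences had been seen. Each motif was searched on both strands, so a match on the other strand is capitalised as its complement, and copies that overlap were counted. *Ndufa11* (chr9:1637364-1637613, + strand) and *Atp5me* (chr14:1464610-1464859, + strand) are shown as subunits whose levels varied with those of the others from rat to rat:
Ndufa11: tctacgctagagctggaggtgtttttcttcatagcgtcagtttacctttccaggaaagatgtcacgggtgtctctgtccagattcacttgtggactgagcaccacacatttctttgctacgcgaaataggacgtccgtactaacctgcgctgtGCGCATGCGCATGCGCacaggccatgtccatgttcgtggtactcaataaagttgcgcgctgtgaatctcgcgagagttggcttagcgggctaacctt
Atp5me: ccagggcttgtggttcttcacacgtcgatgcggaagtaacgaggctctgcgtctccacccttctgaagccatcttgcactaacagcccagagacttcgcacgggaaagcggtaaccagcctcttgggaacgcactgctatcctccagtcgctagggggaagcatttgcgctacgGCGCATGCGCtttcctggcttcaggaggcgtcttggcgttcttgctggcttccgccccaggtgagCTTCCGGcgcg

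With A at its open base N, as in both of these promoters, the NRF1 motif reads alike on both strands. In *Ndufa11* 2 overlapping copies began 97 and 91 bases before the start. *Atp5me* held 1 NRF1 motif that began 76 bases before the start and 1 ETS core at 11. Of the other subunits that correlated with the median of the rest at 0.82 or more, *Ndufa12* held the NRF1 motif. *Ndufb7*, *Cox7b*, *Ndufa1*, *Cox5b*, *Ndufb2* and *Ndufb3* did not. A link between the motif and the shared variation was not tested. *Ndufv2* (chr9:113157521-113157770, − strand) and *Atp5mk* (chr1:255922048-255922297, − strand) are shown as a complex I and a complex V gene that differed between groups:
Ndufv2: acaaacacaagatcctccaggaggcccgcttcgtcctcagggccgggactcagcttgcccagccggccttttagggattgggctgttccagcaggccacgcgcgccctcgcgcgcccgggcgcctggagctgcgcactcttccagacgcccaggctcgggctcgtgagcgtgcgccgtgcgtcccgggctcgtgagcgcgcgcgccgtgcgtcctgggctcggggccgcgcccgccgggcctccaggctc
Atp5mk: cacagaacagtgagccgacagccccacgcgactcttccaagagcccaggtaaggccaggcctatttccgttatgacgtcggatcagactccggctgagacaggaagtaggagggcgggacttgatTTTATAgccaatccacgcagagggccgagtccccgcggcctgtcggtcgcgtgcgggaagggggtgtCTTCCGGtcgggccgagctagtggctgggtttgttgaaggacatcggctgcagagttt

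The *Ndufv2* window held none of the 3 motifs, and that of *Atp5mk* held 1 ETS core at 58 bases before the start and 1 TATAAA at 125. *Cox8a* (chr1:213833624-213833873, − strand) and *Cox8b* (chr1:205408274-205408523, − strand), the broadly expressed and the heart and muscle isoform of one complex IV subunit, are shown because their levels differed in pattern between rats:
Cox8a: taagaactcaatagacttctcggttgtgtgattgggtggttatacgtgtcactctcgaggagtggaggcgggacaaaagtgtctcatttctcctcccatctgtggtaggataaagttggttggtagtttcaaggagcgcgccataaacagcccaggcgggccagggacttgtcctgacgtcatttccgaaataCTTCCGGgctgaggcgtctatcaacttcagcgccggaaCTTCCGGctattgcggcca
Cox8b: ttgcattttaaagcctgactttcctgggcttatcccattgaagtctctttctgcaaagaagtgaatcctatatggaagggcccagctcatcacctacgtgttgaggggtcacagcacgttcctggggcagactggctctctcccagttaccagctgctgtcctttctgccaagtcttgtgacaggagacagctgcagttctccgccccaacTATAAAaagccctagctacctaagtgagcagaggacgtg

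*Cox8a* held 2 ETS cores, at 57 and 19 bases before the start, and no TATAAA, whereas *Cox8b* held 1 TATAAA at 39 and no ETS core. Over the whole window, 13 of 53 member promoters (24.5%) held the NRF1 motif, against 7.23% of the 10976 promoters of genes on the array and 4.71% of all 27457 promoters. The ETS core stood in 16 of 53 (30.2%), against 12.8% and 9.22%. TATAAA stood in 4 of 53 (7.55%), against 12.1% and 14.3%. By complex, the NRF1 motif was in 6 of 25 promoters of complex I, 1 of 4 of complex II, 1 of 3 of complex III, 0 of 9 of complex IV and 5 of 12 of complex V. The median GC content was 57.3% in member promoters and 58.0% in those of genes on the array. A match shows the letters, not a bound site.

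Within a sex, few subunits differed between groups, and those that did were single subunits of complex I and complex V rather than whole complexes. In female extreme responders the complex I accessory subunit *Ndufa8* was lower than in female controls and female minimal responders, and *Atp5mk*, a small membrane subunit of ATP synthase, was higher than in female controls. *Ndufv2*, an iron-sulfur subunit of the NADH-oxidising part of complex I, was lower in female extreme than in female minimal responders and lower in male extreme responders than in male controls. *Atp5f1b*, the catalytic beta subunit of ATP synthase, was higher in male extreme responders than in male controls. Differences were tested with limma over the 11888 probes above background, with a Benjamini-Hochberg adjusted p under 0.05 as the threshold, and 2 of 59 subunits passed in each of these 3 comparisons. Among all probes tested 1% passed between female extreme responders and controls, 3.79% between female extreme and minimal responders and 0.622% between male extreme responders and controls. A count of 2 is 3.39% of the 59 subunits, and 1 gene is 1.69% of them. With the set as a block, 2, 2 and 1 subunits passed in these comparisons, against 1.59%, 3.26% and 0.479% of all probes.

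**Figure D1:**
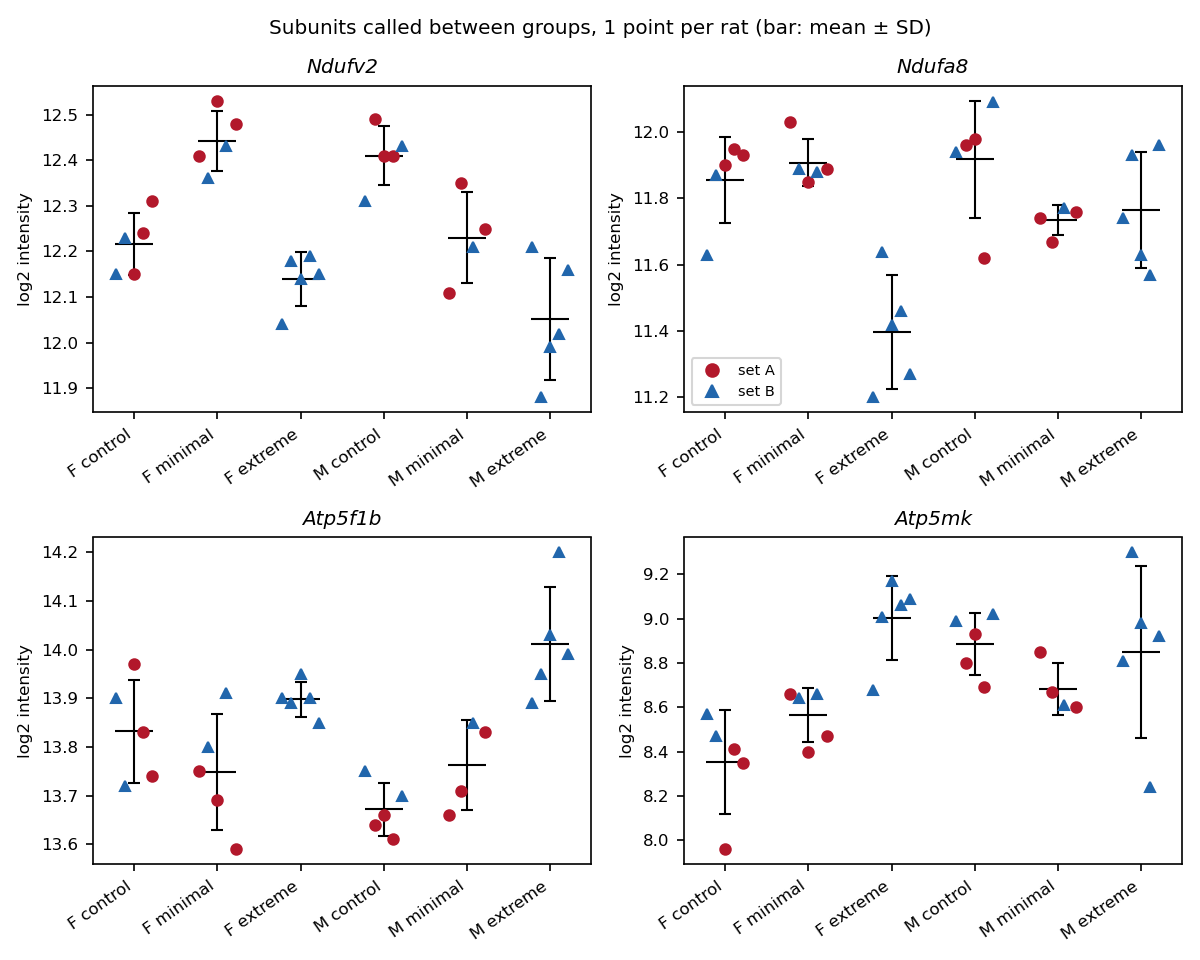
Log2 intensity of *Ndufv2*, *Ndufa8*, *Atp5f1b* and *Atp5mk* in each rat, by sex (F, M) and response. Circles are set A and triangles set B, and bars give the mean ± SD. *Ndufa8* lay at 11.20 to 11.64 in female extreme responders and *Atp5f1b* at 13.89 to 14.20 in male extreme responders.

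*Ndufa8* encodes an accessory subunit on the intermembrane-space side of complex I. Its values in female extreme responders were 11.20, 11.64, 11.42, 11.46 and 11.27. They were 11.63, 11.87, 11.90, 11.95 and 11.93 in female controls and 12.03, 11.89, 11.85, 11.88 and 11.89 in female minimal responders. Every female extreme responder lay below every minimal responder, and 1 value, 11.64, reached just above the lowest control. The difference was −0.46 ± 0.09 (SE) on the log2 scale from controls, a ratio of 0.729 (adjusted p = 0.00874), and −0.51 ± 0.09 from minimal responders, a ratio of 0.703 (adjusted p = 0.0021). With the set as a block the differences were −0.45 (adjusted p = 0.0186) and −0.50 (0.00607), and within set B alone, −0.35 (0.418) and −0.48 (0.166).

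In males *Ndufa8* averaged 11.92 ± 0.17 (SD, n = 5) in controls, 11.73 ± 0.05 (n = 4) in minimal and 11.77 ± 0.18 (n = 5) in extreme responders, and the groups overlapped. The male difference between extreme and minimal responders was 0.03, with a 95% interval from −0.16 to 0.23. The male difference minus the female one was 0.54 ± 0.13 for extreme against minimal responders (unadjusted p = 0.000308, adjusted p = 0.179) and 0.30 ± 0.13 for extreme responders against controls (adjusted p = 0.503). A difference between the sexes thus did not pass the threshold over all probes.

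*Ndufv2* varied least of all subunits within groups (SD 0.08). In female extreme responders it was 12.04, 12.18, 12.14, 12.19 and 12.15, and in female minimal responders 12.41, 12.36, 12.53, 12.43 and 12.48. Female controls, at 12.15, 12.23, 12.15, 12.24 and 12.31, overlapped the extreme responders and lay below every minimal responder. The difference between extreme and minimal females was −0.30 ± 0.06, a ratio of 0.811 (adjusted p = 0.00667, and 0.0265 with the set as a block). Minimal responders were 0.23 ± 0.06 above female controls, which did not pass (unadjusted p = 0.00105, adjusted p = 0.219).

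In males the order of the groups was another. Male controls were at 12.31, 12.49, 12.41, 12.41 and 12.43, minimal responders at 12.11, 12.35, 12.21 and 12.25, and extreme responders at 12.21, 11.88, 11.99, 12.02 and 12.16. Every male extreme responder lay below every male control, and minimal responders overlapped both. The difference from controls was −0.36 ± 0.06, a ratio of 0.779 (adjusted p = 0.00841, and 0.0279 with the set as a block). Within set B alone neither passed, at −0.32 in males (adjusted p = 0.329) and −0.26 between extreme and minimal females (0.304). The male minus female difference for extreme responders against controls was −0.29 ± 0.09 (unadjusted p = 0.00315, adjusted p = 0.361).

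*Atp5f1b* was 13.89, 13.95, 14.03, 14.20 and 13.99 in male extreme responders and 13.75, 13.64, 13.66, 13.61 and 13.70 in male controls. Male minimal responders, at 13.66, 13.71, 13.85 and 13.83, also lay wholly below the extreme responders. The difference from controls was 0.34 ± 0.07, a ratio of 1.26 (adjusted p = 0.0171), and that from minimal responders 0.25 ± 0.07 (adjusted p = 0.103). With the set as a block the first was 0.29 (adjusted p = 0.0532). It was 0.29 (0.357) within set B and missed the threshold without male control 4 or without male extreme 4, with an adjusted p of at most 0.0689. In females the 3 groups overlapped, at 13.83 ± 0.10, 13.75 ± 0.12 and 13.90 ± 0.04 in controls, minimal and extreme responders (SD, n = 5 each).

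*Atp5mk*, whose protein is associated with ATP synthase dimers, was 8.68, 9.01, 9.17, 9.06 and 9.09 in female extreme responders. It was 8.57, 8.47, 7.96, 8.41 and 8.35 in female controls and 8.66, 8.64, 8.40, 8.66 and 8.47 in female minimal responders. Female extreme responders lay above all other females, by a narrow margin for 1 rat. The difference from controls was 0.65 ± 0.13, a ratio of 1.57 (adjusted p = 0.0112, and 0.0394 with the set as a block), and from minimal responders 0.44 ± 0.13 (adjusted p = 0.0613). It was 0.48 (adjusted p = 0.459) within set B, and 0.55 without female control 3, with an adjusted p of 0.0543. In males the difference from controls was −0.04, with a 95% interval from −0.31 to 0.24, and the male minus female difference was −0.69 ± 0.19 (unadjusted p = 0.00111, adjusted p = 0.32).

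Beside these, groups that did not overlap were counted. Between extreme and minimal females this held for 7 of 59 subunits (11.9%), against 6.67% of all probes: *Ndufa8*, *Ndufv2*, *Ndufs1*, *Ndufa10l1*, *Atp5mk*, *Atp5pd* and *Atp5pf*. Between female extreme responders and controls it held for *Ndufa10*, *Uqcrc1* and *Atp5mk*, 3 subunits (5.08%) against 3.87% of all probes. Between male extreme responders and controls it held for *Ndufv2* and *Atp5f1b*, 2 subunits (3.39%) against 2.99%. Between male extreme and minimal responders it held for *Atp5f1b*, 1 subunit (1.69%) against 3.84%. Between minimal responders and controls it held for 3 subunits in females (*Ndufs1*, *Ndufv2* and *Atp5pd*; background 2.09%) and 0 in males (1.72%).

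When the difference was averaged over both sexes, more subunits passed. Among those that passed, the complex I members were lower and most complex V members higher. The complexes as a whole did not follow this. Against controls 16 complex I members were higher by value and 12 lower, and 7 and 6 of complex V. Against minimal responders the numbers were 12 and 16 for complex I, and 6 and 7 for complex V. Extreme responders differed from controls in 6 of 59 subunits (10.2%; 4.94% of all probes), and from minimal responders in 7 (11.9%; 7.95% of all probes). Both comparisons use the same extreme responders. The complex I members that passed were *Ndufa10* (−0.22 ± 0.06, adjusted p = 0.0294), *Ndufa8* (−0.30 ± 0.06, 0.00602) and *Ndufv2* (−0.22 ± 0.04, 0.00499) against controls. Against minimal responders they were *Ndufa7* (−0.29 ± 0.07, 0.0133), *Ndufa8* (−0.24 ± 0.07, 0.0256) and *Ndufv2* (−0.24 ± 0.05, 0.00241). *Ndufa7* and *Ndufa10* encode accessory subunits of complex I.

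Of complex V, *Atp5f1b* was 0.20 ± 0.05 higher against controls (adjusted p = 0.0121) and 0.20 ± 0.05 higher against minimal responders (0.0111). *Atp5f1d*, the delta subunit of the central stalk, was 0.23 ± 0.07 higher than in controls (0.046). *Atp5pf*, a peripheral stalk subunit, was 0.65 ± 0.16 higher than in controls (0.018) and 0.73 ± 0.16 higher than in minimal responders (0.00643). *Atp5mc1*, 1 of 3 genes that encode the c subunit of the membrane rotor, was lower in extreme than in minimal responders, at −0.36 ± 0.10 (0.0213). *Sdhd*, a membrane anchor of complex II, was 0.16 ± 0.05 higher than in minimal responders (0.0451), a call that was lost without a filter on low values (0.0552).

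Leaving out 1 rat at a time ended some of these calls. *Atp5f1d* missed the threshold without any 1 of 19 rats (adjusted p up to 0.1), *Sdhd* without any 1 of 18 (up to 0.125) and *Ndufa10* without any 1 of 6 (up to 0.0608). *Ndufa8* against minimal responders missed it without female extreme 1 or male minimal 4 (up to 0.0522). The calls of *Ndufv2*, *Atp5f1b*, *Atp5pf*, *Ndufa7*, *Atp5mc1* and of *Ndufa8* against controls passed in each of the 29 refits.

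With the set as a block, 1 subunit passed in each of these averaged comparisons, where 2.83% of all probes passed against controls and 2.05% against minimal responders. It was *Ndufa8* against controls (−0.30, adjusted p = 0.0331) and *Ndufv2* against minimal responders (−0.20, adjusted p = 0.0471). *Ndufv2* against controls stood at −0.18 (adjusted p = 0.0502), *Atp5mc1* against minimal responders at −0.42 (0.0576) and *Ndufa8* against minimal responders at −0.23 (0.12). *Atp5f1b* fell to 0.15 (0.109) and 0.14 (0.164), and *Ndufa10* stood at −0.19 (0.138) and *Ndufa7* at −0.24 (0.132). *Atp5f1d* dropped to 0.11 (0.397), *Sdhd* to 0.11 (0.336), and *Atp5pf* to 0.18 (0.301) and 0.20 (0.254).

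**Figure D2:**
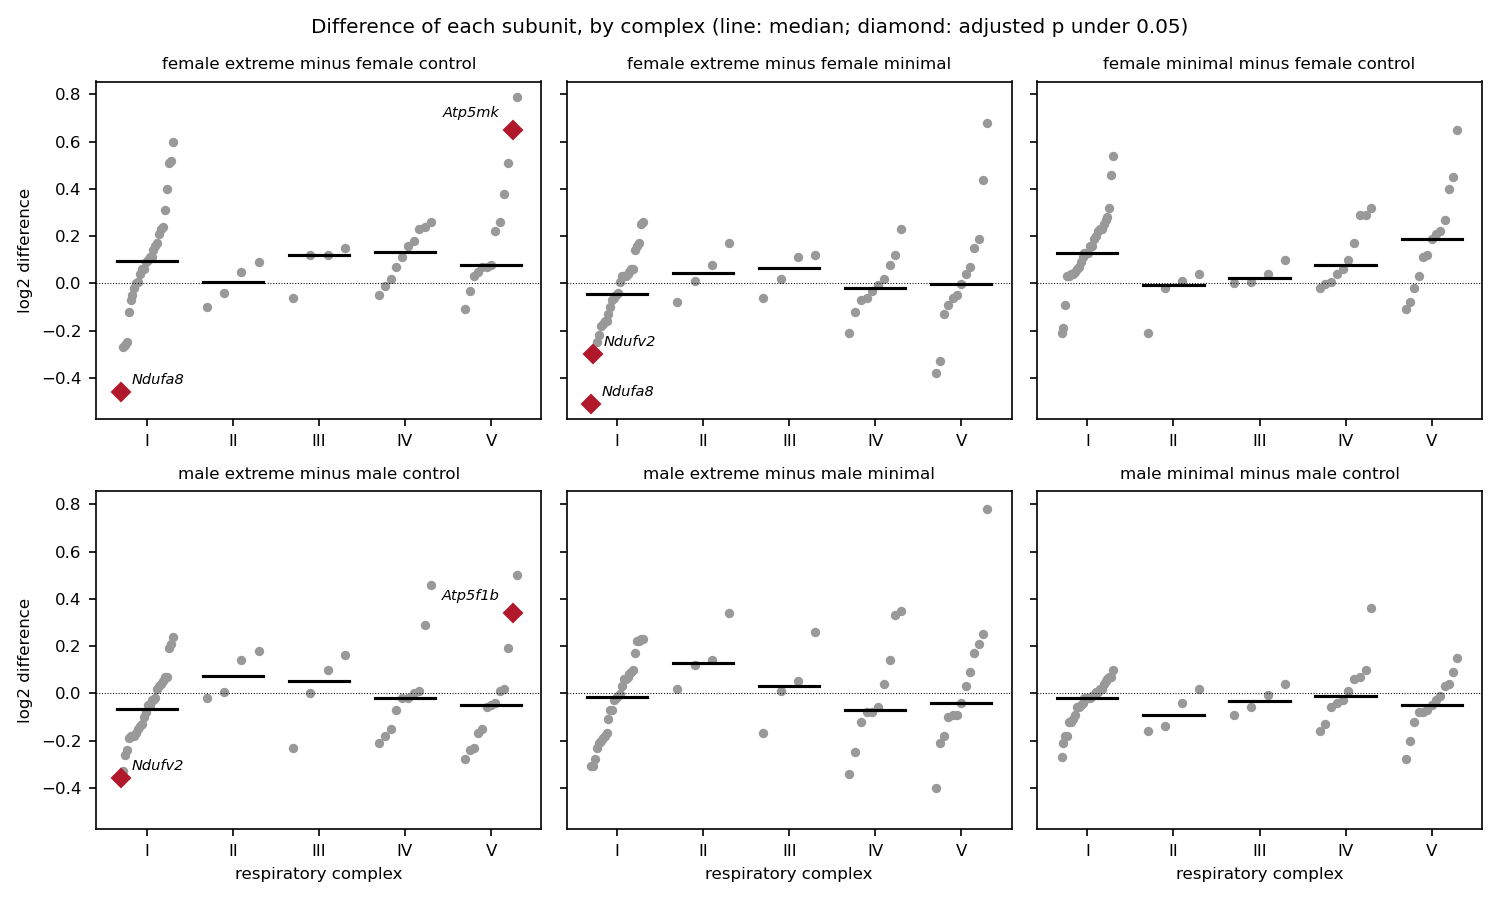
Log2 difference of each of the 59 subunits in the 6 comparisons within a sex, by respiratory complex. Lines are medians, and diamonds are subunits with an adjusted p under 0.05; 2 subunits passed in each of 3 comparisons and 0 in the other 3.

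By complex, the values lay close to 0. Between female extreme responders and controls the median difference was 0.09 over all 59 subunits, with 44 higher, against −0.0089 over all probes. Without female control 3 that median was 0.02, as it was within set B. In this female comparison 16 of 59 subunits (27.1%) had an unadjusted p under 0.05, against 13.2% of all probes. The same male comparison had 9 (15.3%, against 16.5%). Complex medians over all rats were 0.09 for complex I, 0.0053 for complex II, 0.12 for complex III, 0.14 for complex IV and 0.08 for complex V. Between male extreme responders and controls the median was −0.03, with 24 of 59 higher, and the complex medians ran from −0.07 for complex I to 0.07 for complex II. Without male extreme 4 the male median was 0.04. Extreme and minimal responders differed by medians of −0.0011 in females and −0.0043 in males, with 29 of 59 higher in each, and by −0.05 and −0.04 with the set as a block. Without male extreme 4 the male median was 0.08. Female minimal responders were above controls for 49 of 59 subunits, at a median of 0.11, and 0 passed (0% of all probes; 11 of 59, 18.6%, had an unadjusted p under 0.05, against 11.1% of all probes). Without female control 3, and likewise within set B, that median was 0.05. In males the minimal responders were above controls for 21, at a median of −0.03, and 0 passed (0% of all probes; 1 of 59 had an unadjusted p under 0.05, against 4.24%).

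The male minus female difference for extreme responders against controls was below 0 in 41 of 59 subunits, with a median of −0.16 against −0.00035 over all probes. Its complex medians were −0.16, 0.08, −0.05, −0.22 and −0.29 for complexes I to V. None of the 59 passed for this interaction (0.0168% of all probes), and 9 had an unadjusted p under 0.05 (15.3%, against 8.5% of all probes). Its median was −0.09 without female control 3, −0.08 without male extreme 4 and −0.02 without both, the rats lowest in these subunits, and −0.09 within set B. For extreme against minimal responders the interaction had a median of −0.0093 (0.08 without male extreme 4), 0 calls (0% of all probes) and 2 subunits at an unadjusted p under 0.05 (3.39%, against 7.84%). Male extreme and minimal responders differed in 0 subunits after adjustment (0.0757% of all probes) and in 14 at an unadjusted p under 0.05 (23.7%, against 15.1%). Averaged over the 3 groups, males and females differed in 0 subunits (0.21% of all probes) and in 4 before adjustment (6.78%, against 11% of all probes), which were *Ndufs7*, *Cox6a2*, *Cox6c* and *Atp5mk*.

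Subunits of the catalytic cores were read together with some other main subunits of each complex. Of the complex I core, 6 genes were on the array, and *Ndufv2* was the one that passed in the comparisons of responders. In the average against minimal responders 4 of the 6 (66.7%) had an unadjusted p under 0.05, against 23.8% of all probes. In the average against controls 2 did (33.3%, against 19.8%). *Ndufv1*, which binds NADH and flavin, differed by 0.09 in females and 0.19 in males between extreme responders and controls. *Ndufs1*, the largest iron-sulfur subunit, differed by −0.05 and 0.24, *Ndufs3* by −0.02 and 0.05, *Ndufs7* by 0.16 and 0.07, and *Ndufs8* by 0.24 and 0.21. Of complex II, the flavoprotein *Sdha* differed by 0.09 and 0.18, the iron-sulfur subunit *Sdhb* by 0.05 and 0.14, and the anchor *Sdhc* by −0.10 and −0.02. Of complex III, the core protein gene *Uqcrc1* was 0.15 and 0.16 higher in value and the Rieske subunit *Uqcrfs1* differed by −0.06 and 0.10. Of complex IV, *Cox4i1* differed by 0.02 and −0.02, *Cox5a* by 0.23 and 0.00048, and *Cox5b* by 0.26 and −0.21. The alpha subunit of ATP synthase, *Atp5f1a*, differed by 0.05 and 0.02 where its partner *Atp5f1b* differed by 0.07 and 0.34, and the gamma subunit *Atp5f1c* by −0.11 and −0.06. None of these genes other than *Ndufv2* and *Atp5f1b* passed in a comparison of extreme responders with controls.

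The level of the subunits also varied from rat to rat. Each value was expressed as its distance from the gene's mean over 29 rats, and the median over subunits was taken per rat. Female control 3 was lowest at −0.29 and male extreme 4 next at −0.26, and the other 27 rats lay between −0.11 and 0.13. In female control 3 complexes I, III, IV and V stood at −0.29, −0.31, −0.34 and −0.56, whereas complex II stood at 0.06. In male extreme 4 they stood at −0.32, −0.11, −0.35 and −0.22, and complex II at 0.24. Complex II was thus not low in these rats. In female control 3 it lay within the −0.17 to 0.12 of the other 27 rats, and in male extreme 4 above them. Male extreme 4 also had the lowest median correlation with the other arrays, 0.964, and the mean distance of its neuron, glycolysis and tricarboxylic acid cycle genes was 0.21, 0.40 and 0.23; in female control 3 these means were −0.07, −0.03 and 0.05. Their part in the subunits' low level was not tested.

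**Figure D3:**
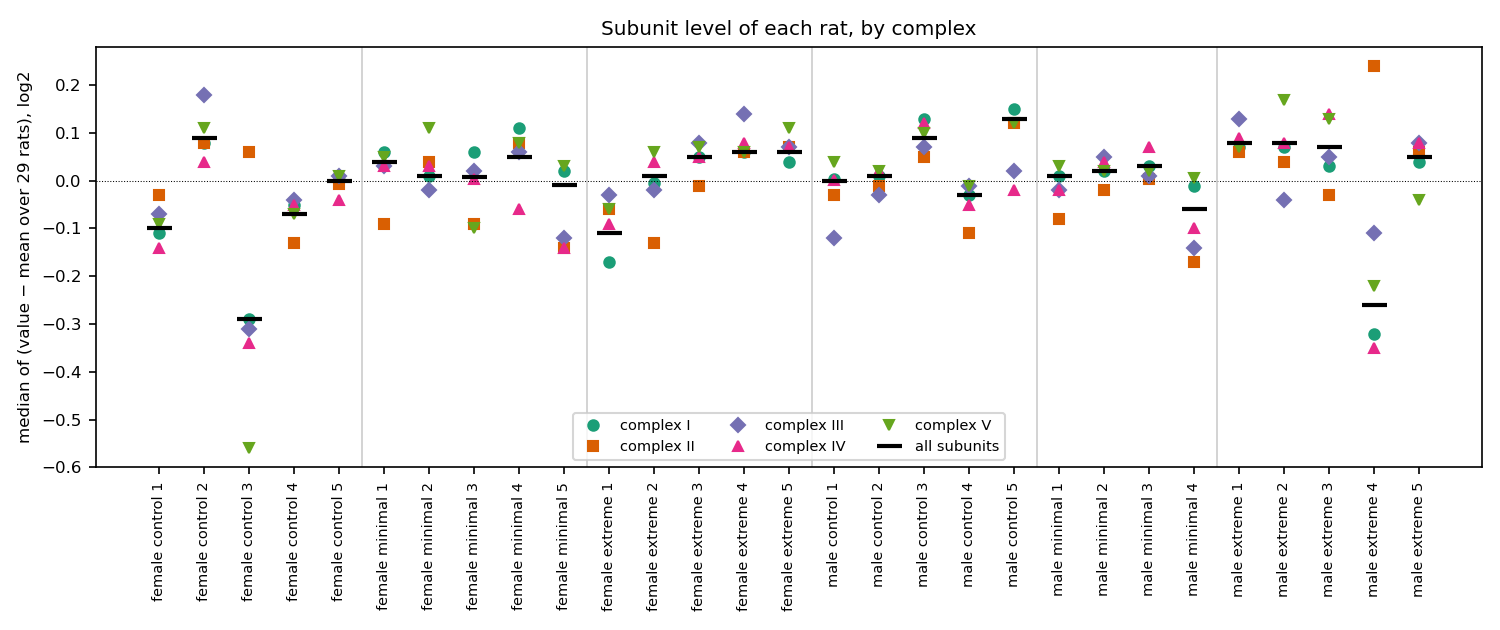
Median distance of the subunits of each complex from their mean over 29 rats (log2), for each rat. Bars are the median over all 59 subunits. Female control 3 and male extreme 4 stand lowest, at −0.29 and −0.26.

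The shared variation was described within groups, as each rat's distance from its own group's mean. Over the 29 arrays the median correlation between pairs of subunits was 0.19 (1711 pairs), 0.22 within a complex and 0.17 between complexes, against 0 for all pairs of probes. Such correlations share the arrays' normalisation and RNA quality and carry no test. Subunits closest to the median of the others were *Ndufb7* (r = 0.92), *Cox7b* (0.89), *Ndufa1* (0.87), *Ndufa11* (0.86) and *Cox5b* (0.85). *Atp5me*, *Ndufb2*, *Ndufa12* and *Ndufb3* followed at 0.82 or 0.83. Others ran opposite to the rest: *Ndufa10l1* (−0.78), *Sdha* (−0.50), *Atp5f1b* (−0.49) and *Ndufa10* (−0.47). These correlations include the low rats, female control 3 and male extreme 4, and were not computed without them. *Ndufb7* was 10.51 and 10.63 in these rats and at least 11.13 in every other. *Cox5b* was 11.32 and 11.06, and at least 11.91 in every other. *Sdha* was highest in male extreme 4, at 11.88.

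The spread within groups differed widely between subunits. *Ndufa1*, a small membrane subunit needed for assembly of complex I, ran from 10.68 to 12.87 over the rats and had an SD within groups of 0.39. *Atp5me*, the e subunit of ATP synthase dimers, ran from 11.15 to 13.47 (SD 0.41), and *Ndufb2* from 10.95 to 12.83 (SD 0.42). In each of these subunits female control 3 was lowest and male extreme 4 next, at 11.09 for *Ndufa1*, 12.06 for *Atp5me* and 11.37 for *Ndufb2*. Both rats are part of these SDs, which were not computed without them. At the other end *Ndufv2* had an SD of 0.08, *Atp5f1b* and *Sdhd* of 0.09, and the stalk subunit *Atp5po* of 0.10. The median SD was 0.17 over the subunits and 0.15 over all probes, and 38 of 59 subunits (64.4%) lay above the latter.

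**Figure D4:**
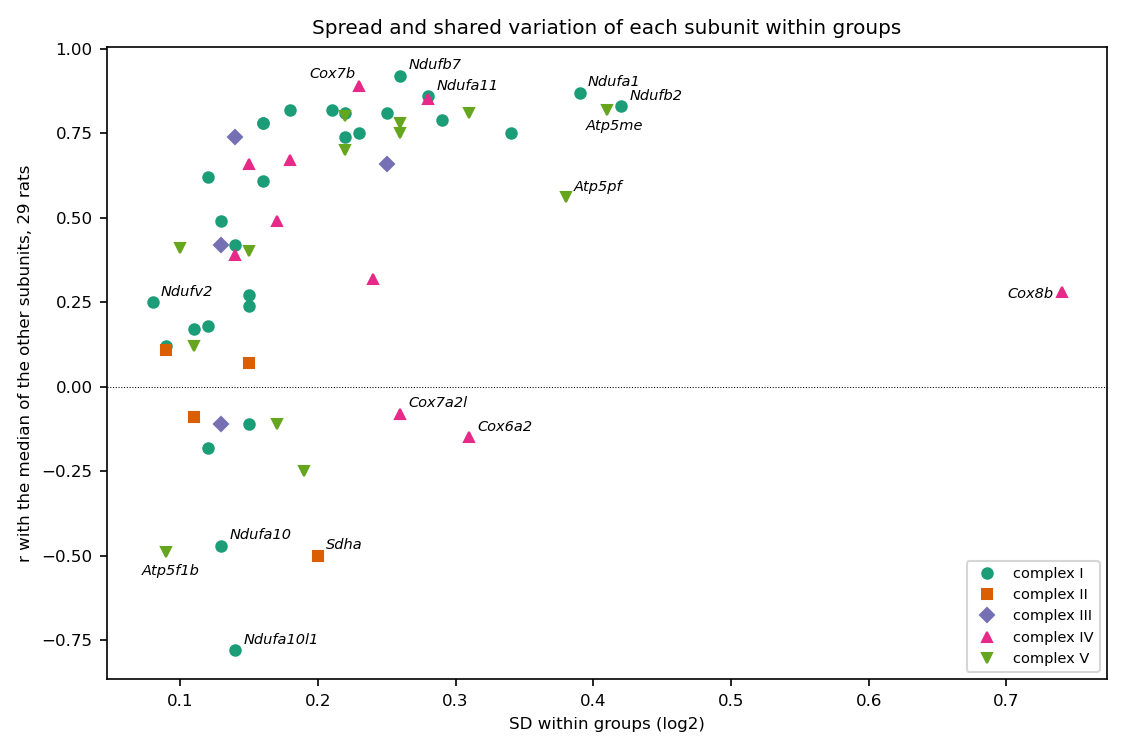
SD within groups (log2) of each of the 59 subunits against its correlation with the median of the other subunits over 29 rats, both after removing group means. *Ndufb7* has the highest correlation (0.92), *Ndufa10l1* the lowest (−0.78) and *Cox8b* the largest SD (0.74).

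The set of the arrays was itself followed by several subunits. With group means in the fit, 12 of 59 (20.3%) differed between set A and set B, against 18.9% of all probes. *Atp5pf* had the largest difference, −0.78 ± 0.08 (adjusted p = 9.61e-08). It was 11.14 to 11.93 in the 12 rats of set A and 12.20 to 12.79 in the 17 of set B, with no overlap. All 10 extreme responders were in set B, at 12.26 to 12.79, and so were the 7 other rats above 12. Set B rats that were not extreme responders reached 12.64 (male control 5), within the range of the extreme responders.

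*Cox7a2l* was next, at −0.50 ± 0.07 (adjusted p = 1.2e-05), with 11.22 to 11.82 in set A and 11.45 to 12.11 in set B. *Ndufa5*, *Ndufb2*, *Ndufb8*, *Ndufv1*, *Sdhb*, *Atp5f1d* and *Atp5mc2* were also lower in set A, with log2 differences from −0.58 to −0.19. *Ndufb9* (0.15), *Cox8a* (0.32) and *Atp5f1c* (0.26) were higher. Leaving out single rats ended the calls of *Ndufb9* (15 of 29 refits), *Sdhb* (13), *Ndufv1* (8), *Atp5f1d* (8) and *Cox8a* (1). Some markers of cell types differed between the sets too. Of 11 oligodendrocyte markers 3 passed (27.3%, against 18.9% of all probes), all lower in set A, with *Mbp* at −0.97 and *Cldn11* at −1.04. Of 12 neuron markers 5 passed (41.7%), all lower in set A, with *Map2* at −0.49 and *Slc17a7* at −0.52. By value, 8 markers of each list were lower, and 3 and 4 were higher. Of 7 astrocyte markers 3 passed (42.9%), *Aqp4* (−0.40) and *Aldoc* (−0.18) lower and *Gja1* (0.25) higher. Of 10 microglia markers 1 passed (10%), *Tyrobp* (0.28). Their part in the subunits' differences was not tested.

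*Cox8b* was the subunit with the largest spread, and it stood high in 4 rats. Female control 2 had 9.02, female minimal 3 had 9.34, female extreme 5 had 8.52 and male minimal 2 had 8.43, and the other 25 rats lay between 6.55 and 7.32. These 4 rats are those with the highest levels of choroid plexus genes, a division found from other probes after the data had been seen. *Kl* lay at 8.29 to 9.10 in them and 6.55 to 7.27 elsewhere, *Folr1* at 8.26 to 9.26 and 6.65 to 7.22, *Otx2* at 9.80 to 10.51 and 6.60 to 8.80, and *Ttr*, transthyretin, at 14.50 to 15 and 7.01 to 14.04. *Cox8b* averaged 8.83 ± 0.43 (SD, n = 4) in them and 6.94 ± 0.18 (n = 25) in the others, a difference of 1.91 ± 0.12 with group means in the fit (adjusted p = 6.06e-13). Only 6 of these 25 rats were above the background threshold. With values under the threshold raised to it, the level was at least 3.4-fold higher in the 4 rats. It was the 1 subunit of 59 that differed between these rats and the rest, where 2.94% of all probes did. The broadly expressed isoform *Cox8a*, at 12.51 to 13.56 over all rats, did not pass.

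**Figure D5:**
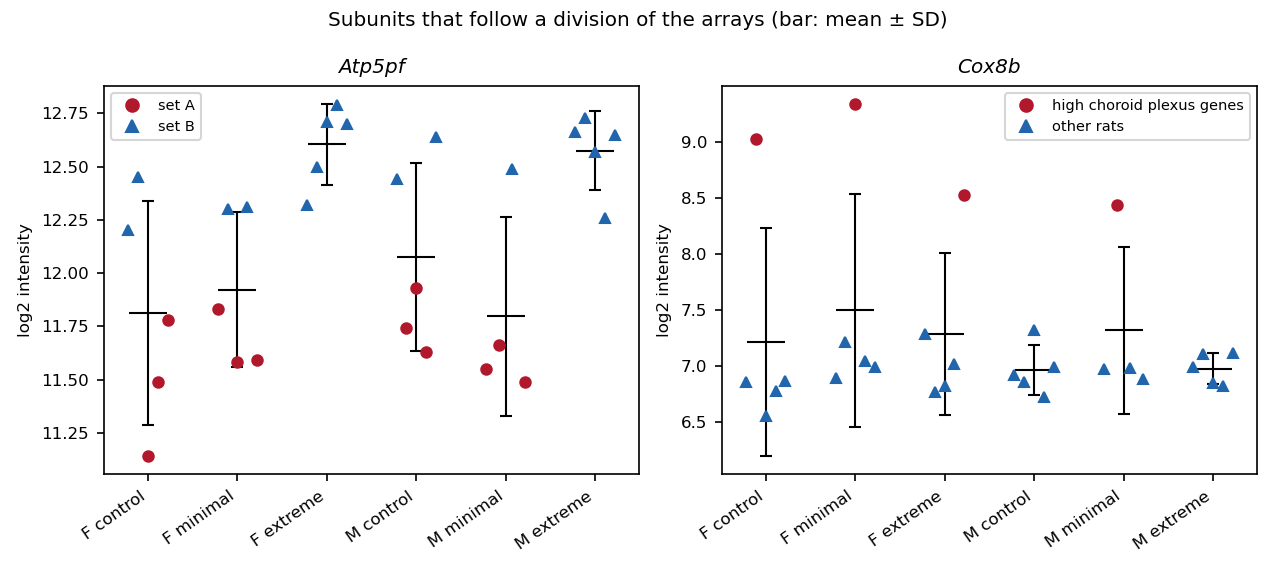
Log2 intensity of *Atp5pf*, marked by array set, and of *Cox8b*, marked for the 4 rats high in choroid plexus genes, in each rat by sex (F, M) and response; bars are the mean ± SD. *Atp5pf* has no overlap between set A and set B, and *Cox8b* exceeds 8 in those 4 rats and in no other.

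Other isoforms gave the following values. *Cox6a2*, the heart and muscle isoform of another complex IV subunit, lay between 6.71 and 7.89 and differed by 0.46 between male extreme responders and controls (adjusted p = 0.198), while *Cox6a1*, the broadly expressed isoform, lay between 13.84 and 14.47 and differed by −0.15. Of the c-subunit genes, *Atp5mc1* differed by −0.33 between extreme and minimal females and −0.40 between extreme and minimal males, *Atp5mc2* by 0.19 and 0.09, and *Atp5mc3*, near background, by −0.09 and −0.04. *Ndufa10* differed by −0.27 between female extreme responders and controls, and its paralog *Ndufa10l1* by −0.26; both missed the threshold (adjusted p = 0.119 and 0.183), and cross-binding between their probes was not tested.

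Genes that build, feed or regulate the complexes were followed from lists written with earlier results of these data known. Of 28 assembly factors above background, 2 (7.14%, against 3.79% of all probes) were lower in female extreme than in female minimal responders. They were *Cox19* (−0.40 ± 0.10, adjusted p = 0.0174) and *Coa7* (−0.30 ± 0.08, 0.0248), both factors of complex IV assembly. *Coa7* was also lower in male extreme responders than in controls (−0.33 ± 0.08, 0.0439), 1 of 28 (3.57%, against 0.622%). None of the 3 passed with the set as a block (adjusted p = 0.0806, 0.0664 and 0.0937), in comparisons where 3.26% (females) and 0.479% (males) of all probes did.

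In the averages over sexes, *Cox19* (−0.27) and *Coa7* (−0.26) were lower than in controls, 2 of 28 (7.14%, against 4.94% of all probes). Against minimal responders 6 of 28 passed (21.4%, against 7.95%). *Cox19* (−0.42), *Coa7* (−0.33), *Ecsit* (−0.29), *Atpaf2* (−0.23) and *Ndufaf4* (−0.18) were lower, and *Ndufaf2* (0.32) was higher. Once the set was a block, *Coa7* passed against controls (−0.23, adjusted p = 0.0478) and *Coa7* (−0.29, 0.0266) and *Cox19* (−0.29, 0.0393) against minimal responders, and the others did not. *Ecsit* then stood at −0.06 and *Atpaf2* at −0.11; both, and *Cox19*, themselves differed between the array sets. The median of the list against minimal responders was −0.05, and 0.0051 with the set as a block.

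Of 9 mitochondrial carriers and channels, *Mpc1*, a subunit of the pyruvate carrier, was higher in female extreme than minimal responders (0.34 ± 0.08, adjusted p = 0.0114) and in male extreme responders than controls (0.36 ± 0.08, 0.028). It was also higher in both averages over sexes (0.28 and 0.29). *Mpc1* passed in all 4 of these comparisons with the set as a block, at 0.38 (adjusted p = 0.00995), 0.41 (0.0238), 0.32 (0.00514) and 0.34 (0.0101). Of all probes 3.26%, 0.479%, 2.83% and 2.05% passed there. Its partner *Mpc2* went the other way in the averages over sexes, at −0.39 ± 0.09 against controls (0.0193) and −0.37 ± 0.10 against minimal responders (0.0188), and differed between the sets. *Mpc2* with the block stood at −0.20 (0.251) and −0.16 (0.395). *Vdac3*, an outer-membrane channel, was 0.24 ± 0.07 higher in female extreme than minimal responders (0.0463, and 0.0605 with the block). Without the block, 22.2% of the 9 genes passed between extreme and minimal females (3.79% of all probes). Between male extreme responders and controls 11.1% did (0.622% of all probes). In each average 22.2% did, where 4.94% of all probes passed against controls and 7.95% against minimal responders.

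Of 14 genes of the tricarboxylic acid cycle 1 passed (7.14%, against 4.94% of all probes), in the average against controls. It was *Idh3b*, a subunit of isocitrate dehydrogenase, at 0.30 ± 0.07 (adjusted p = 0.011). With the set as a block it stood at 0.36 (0.0116) there and passed between male extreme responders and controls too (0.44, 0.0442). *Ogdh*, a subunit of the oxoglutarate dehydrogenase complex, passed under the block alone, at 0.30 both between extreme and minimal females (0.0422) and in the average against controls (0.0126). Under the block 2.83% of all probes passed in this average, 0.479% between male extreme responders and controls and 3.26% between extreme and minimal females. Of 14 glycolysis genes, *Gapdh* was lower in female extreme than minimal responders (−0.45 ± 0.11, 0.0175) and in the average against minimal responders (−0.29). *Aldoa* (0.28 against controls) and *Aldoc* (0.23 against minimal responders) were higher in the averages. These calls were 7.14% of the list between extreme and minimal females, 7.14% in the average against controls and 14.3% in that against minimal responders. Of all probes 3.79%, 4.94% and 7.95% passed. None of these glycolysis calls passed with the set as a block, where *Gapdh* stood at −0.40 (0.0538) in females and −0.23 (0.177) in the average, *Aldoa* at 0.24 (0.0862) and *Aldoc* at 0.11 (0.431).

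Of 12 regulators of mitochondrial gene expression, the mitochondrial transcription factor *Tfb2m* was lower in female extreme responders than in controls (−0.32 ± 0.08, adjusted p = 0.0418), 8.33% of the list against 1% of all probes. *Twnk*, the helicase of mitochondrial DNA, was 0.24 ± 0.06 higher in extreme responders than in controls on average (0.0284), 8.33% of the list against 4.94% of all probes. *Twnk* was itself lower in set A than in set B (−0.23). In the average against minimal responders 2 passed (16.7%, against 7.95% of all probes). *Tfam*, which packages mitochondrial DNA, was lower (−0.15 ± 0.05, 0.0322) and *Polg*, its polymerase, higher (0.17 ± 0.05, 0.039). There were 0 calls of regulators between groups with the set as a block: *Tfb2m* stood at −0.25 (0.107), *Twnk* at 0.11 (0.358), *Tfam* at −0.12 (0.22) and *Polg* at 0.18 (0.129). Of the 6 electron carriers and related genes outside the symbol rule, among them cytochrome c (*Cycs*), 0 passed in the comparisons of responders and controls. Between female extreme responders and controls 1 of the 6 (16.7%) had an unadjusted p under 0.05, near the 13.2% of all probes.

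Markers of other cell types were read from the same fit. All 11 oligodendrocyte markers above background had higher values in female extreme responders than in controls (median 0.37, and 0.28 with the set as a block). None passed, and 5 (45.5%, against 13.2% of all probes) had an unadjusted p under 0.05. Between male extreme responders and controls 8 were higher by value and 3 lower. The male median was 0.06, and −0.0022 with the set as a block. In males 0 had an unadjusted p under 0.05, against 16.5% of all probes. *Cnp* (0.52) and *Olig1* (0.55) were higher in female extreme than in female minimal responders, 18.2% of the list against 3.79% of all probes. With the set as a block *Olig1* passed (0.50, adjusted p = 0.0272), where 3.26% of all probes did, and *Cnp* did not (0.43, 0.13). The mean of these markers' distances from their means over the 29 rats ran from −0.04 to 0.41 in female extreme responders, −0.47 to 0.16 in female controls and −0.43 to 0.20 in female minimal responders. In males it ran from −0.20 to 0.36, −0.23 to 0.26 and −0.53 to 0.14 in extreme responders, controls and minimal responders. The 12 neuron markers had a median difference of 0.05 in females and 0.16 in males between extreme responders and controls. *Tubb3* was higher in females (0.68), 8.33% of its list against 1% of all probes. With the set as a block *Tubb3* stood at 0.42 (adjusted p = 0.138). With the block the neuron medians were −0.02 and −0.03. Astrocyte markers stood at −0.05 and 0.19 (7 markers), microglia markers at −0.07 and 0.0074 (10) and endothelial and pericyte markers at 0.04 and 0.09 (4). Of the last 4, *Tie1* was higher in female extreme than minimal responders (0.40, adjusted p = 0.0148), 25% of its list against 3.79% of all probes. It was also higher in the averages against controls (0.23, 0.041) and minimal responders (0.29, 0.0106). With the set as a block *Tie1* passed in these 3 comparisons (0.00956, 0.0309 and 0.0208) and between female extreme responders and controls (0.41, 0.0325). Of all probes 3.26%, 2.83%, 2.05% and 1.59% passed there. In the average against controls, where 4.94% of all probes passed, *Mag* (0.28) and *Cnp* (0.37) were higher, 18.2% of their list. *Tubb3* (0.63, 8.33% of its list) was also higher, and *Trem2* (−0.30, 10%) lower. Against minimal responders, where 7.95% passed, *Cnp* (0.47), *Cldn11* (0.75) and *Olig1* (0.31) were higher, 27.3% of their list. So were *Slc1a2* (0.25) and *Aldoc* (0.23), 28.6% of theirs, and *Tubb3* (0.45, 8.33%). None of these passed with the set as a block. The part of cell composition in the subunits' differences was not tested.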

How the data were processed

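Hippocampal RNA was labelled as biotinylated cRNA and hybridised to Illumina arrays, per the labels' protocols. The deposited values, taken as log2 intensities of 22523 probes, were already quantile-normalised by the authors: the sorted values of the 29 arrays differ by at most 0.00119. The log base was not given in the sources used here and was taken from the range. A further table of signals was not used, since its 60 value columns matched no label. The number of arrays limits the precision.

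A probe was kept when it lay over the background mode of 6.7 plus 3 SDs (0.109) on at least 5 arrays, which left 11888. The means of the 6 groups were fitted by limma's linear model with moderated variances (version 3.58.1, R 4.3.3; two-sided; 23 residual degrees of freedom) over all kept probes, in 11 comparisons, with Benjamini-Hochberg adjustment over probes within each and a threshold of 0.05; values for subunits were read from that fit. In simulated data on 11888 probes with 200 changed, it recovered 39%, 77% and 89.6% of log2 changes of 0.3, 0.5 and 0.7 between female extreme and minimal responders, and 32.8%, 72.1% and 96% between male extreme responders and controls. False calls were 10 and 5. The simulation drew independent normal noise around 1 mean per probe, without array sets, single low rats or correlated probes. The rates hold for that simpler case and do not show recovery in these data. Array sets were defined on probes other than the subunits that showed an empty stretch of 0.8 or more between rats, with at least 5 arrays on each side (8 probes shared the division); the choroid plexus division used at least 3 arrays a side (26 probes). Subunits are named where they passed a threshold or had the smallest p of their complex in a comparison within a sex. Those of catalytic cores, some other main subunits and those of isoform pairs are named too. In other lists, genes past the threshold between groups are named, and only some of those past it between array sets. Other genes are named for the description of spread, promoters or single arrays, or where groups did not overlap, and were chosen after their values were seen. The subunits and lists were chosen with earlier results of these data known. Replicate numbers are positions within a group in the order of the samples and only name a rat; of 70 pairs of rats with the same number in different groups, 21 correlated above 0.1 (median r −0.014), and the block on them is an alternative. The rats are separate animals, per the labels. Promoters come from RefSeq (GRCr8). Figures were drawn with matplotlib under Python.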

Additional observations from a re-analysis of the deposited data

Results flagged for a closer look

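Values that stood far from the rest of their group were looked for in 38 named subunits over 6 groups of 4 or 5 rats. A value was listed where its gap to the next one was a larger part of the group's range than Dixon's 95% limit allows. Of 228 groups, 25 (11%) held one, where chance gives about 1 in 20 for independent groups of unselected genes. These were neither. Some of the 38 were named because they passed between groups or array sets in these data, and the subunits varied together. The share is therefore not a test. Male minimal 3, the 1 male minimal responder in array set B, held 5 of them: it was high for *Ndufa5* (12.26), *Ndufb2* (12.66), *Ndufv1* (10.88) and *Atp5mc2* (11.89) and low for *Ndufb9* (13.52). These 5 subunits had passed between the array sets. Male extreme 4 was low for *Ndufa5* (11.29), *Ndufb2* (11.37), *Cox5b* (11.06) and *Atp5mc2* (10.77), and high for the flavoprotein *Sdha* of complex II (11.88). Female control 3 was low for *Cox5b* (11.32) and *Cox6a1* (13.84). These 3 rats held 12 of the 25 values.

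*Cox8b* stood high in female control 2 (9.02), female minimal 3 (9.34) and male minimal 2 (8.43), 3 of the 4 rats high in choroid plexus genes. *Ndufa8* was low in female control 1 (11.63) and high in female minimal 1 (12.03). Female extreme 1 was low for *Ndufa5* (12.01) and *Cox6a1* (14.01). *Sdhc* was high in female minimal 1 (12.71) and male control 4 (12.79), and *Sdhd* low in male extreme 2 (11.18). Near background, *Cox6a2* was high in female minimal 1 (7.88), *Cox8c* high in male extreme 2 (6.86) and *Atp5mc3* low in female control 4 (6.78).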

How the results depend on the processing

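Of 31 calls of a subunit in a comparison, 0 changed direction under any alternative. The counts that follow are of subunits. Shares of all probes with the set as a block are given above. For the other alternatives such shares are not given. Those counts therefore do not show whether subunits in particular, or probes in general, gained or lost calls. The 2 calls between female extreme responders and controls became 0 within set B, 6 with array weights and 1 without the 4 rats high in choroid plexus genes. The 2 between extreme and minimal females became 0 within set B and 5 both with array weights and without female control 3 and male extreme 4. The 2 between male extreme responders and controls became 1 with the array set as a block and without female control 3 and male extreme 4, and 0 within set B and with each sex fitted alone. Of the averages over sexes, the 6 calls against controls became 1 with the set as a block, 0 within set B and 11 with array weights, and the 7 against minimal responders became 1 with the set as a block. The 12 calls between array sets became 6 without the 4 rats high in choroid plexus genes. Leaving out 1 rat at a time gave 1 to 3, 2 to 3 and 1 to 2 calls in the first 3 comparisons (1 without female control 3, and 1 without male control 4 or male extreme 4), 0 to 1 between male extreme and minimal responders (1 without male minimal 3), 4 to 8 and 5 to 9 in the averages, 7 to 15 between array sets (7 without male minimal 3), and 0 in the others. With the replicate number as a block the counts were 2, 2, 2, 5, 6 and 11 where the main counts were 2, 2, 2, 6, 7 and 12, and 0 elsewhere; *Atp5f1d* against controls (adjusted p = 0.0643), *Sdhd* against minimal responders (0.0565), and *Ndufb9* (0.0835) and *Sdhb* (0.0514) between sets then missed the threshold. Cyclic loess, no filter, a stricter filter, a trended robust prior and the choroid plexus division as a block left every count within 1.5 times the main one. Set B holds 1 male minimal responder, so comparisons with that group were not run within it; set B alone has fewer rats. For the other changes the cause was not tested. The alternatives on the 4 rats and on the 2 low rats were chosen after seeing the data. Subunits near background on many arrays (*Cox6a2*, *Cox8b*, *Ndufb4*, *Atp5mc3*) are limited by their signal.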
